A study of Mus musculus with 55 samples.

Results

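The genes described here encode 9 proteins of the machinery that shortens the poly(A) tail of maternal mRNA. They were chosen by name, as the adaptor *Btg4*, the CCR4-NOT subunits *Cnot1*, *Cnot6*, *Cnot6l*, *Cnot7* and *Cnot8*, the AU-rich element binding protein *Zfp36l2* and the PAN2-PAN3 pair *Pan2* and *Pan3*. All 9 were found among the 51734 genes of the oocyte count files, and all 9 had enough counts to be tested.

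An oocyte that has reached full size stops transcription and lives on stored mRNA. During meiotic maturation a large part of this store is removed, and the first step is deadenylation, the removal of the poly(A) tail. CCR4-NOT carries it out with an exonuclease of the CAF1 type (CNOT7 or CNOT8) and one of the CCR4 type (CNOT6 or CNOT6L) on the scaffold CNOT1, BTG4 links the complex to the mRNA cap machinery, and ZFP36L2 brings it to mRNAs with AU-rich elements. PAN2-PAN3 is a second deadenylase that trims long tails. Some mRNAs of this machinery are themselves stored with short tails and are translated only during maturation, so that their mRNA level and their protein level need not move together.

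Each library was made from 1 mouse oocyte. There were 18 wild-type fully grown oocytes (FGOs), 8 *Dnmt3L* ADD/ADD FGOs (labelled D124A), 8 *Dnmt3a* ADD/ADD FGOs (labelled ADA), 8 FGOs homozygous for both alleles (double mutant) and 10 wild-type MII oocytes, which have matured to the second meiotic metaphase. The ADD alleles carry alanine substitutions in the domain with which DNMT3A and DNMT3L bind histone H3 unmethylated at lysine 4, they are constitutive, so that every cell of the female carries them, each line came from 1 founder male, and the lines had been backcrossed to C57BL/6J, the strain of the wild type. FGOs came from adult females of 10 to 12 weeks. For fertilization the study took MII oocytes from the oviducts of hormone-primed females that were in part older than the FGO donors, and the methods do not say whether the sequenced MII oocytes were obtained in that way. If they were, maturation cannot be told apart from hormone treatment and age. The number of females per group is not given in the sources used here, so that the p-values measure the spread between oocytes, of which some may share a female. MII oocytes were wild type only, and the change with maturation could therefore not be compared between genotypes.

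The total count per library ran from 7832458 to 23739871. Values are CPM, counts scaled by TMM, that is, shares of a library. The sources used here name no added RNA of known amount, so that a loss of RNA common to all genes of an oocyte cannot be seen, and since the kit primes cDNA on the poly(A) tail, a shorter tail and a lower number of transcripts cannot be told apart. By mapped reads in the study's sequencing summary, the oocytes form a lower class (under 80% mapped) and a higher class. Of the wild-type FGOs 8 were of the lower class and 10 of the higher, all 8 *Dnmt3L* ADD/ADD FGOs were of the higher, all 8 double mutant FGOs of the lower, and the *Dnmt3a* ADD/ADD FGOs (3 lower, 5 higher) and MII oocytes (3 lower, 7 higher) were divided. All 10 oocyte markers were counted in every group. They summed to between 9130 and 13500 CPM in wild-type FGOs, 9060 and 11300 with the *Dnmt3L* allele, 8360 and 10500 with that of *Dnmt3a*, 12400 and 13900 with both and 9230 and 9950 in MII oocytes, so that the double mutant FGOs overlapped neither with the single mutants nor with MII oocytes. The zona pellucida genes *Zp2* and *Zp3* had means of 1370 and 845 CPM in wild-type FGOs and of 496 and 217 in MII oocytes. The 12 markers of granulosa and cumulus cells summed to between 127 and 292 CPM in wild-type FGOs, between 116 and 142 in double mutant FGOs and between 105 and 138 in MII oocytes, where *Amh* and *Inhbb* were at 0 in all 10 libraries. Most of that sum was *Nr5a2* (mean 86.3 CPM in wild-type FGOs and 83.5 in MII oocytes) and *Cyp19a1* (24.7 and 25.4), while *Inha* (9.82 and 0.142) and *Hsd3b1* (16.4 and 1.57) were far lower in MII oocytes. The part of both marker lists in the differences below was not tested.

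The ends of the 3′ UTRs are shown first, because tail length in the maturing oocyte is set there. The cytoplasmic polyadenylation element (CPE), which the protein CPEB1 binds, was searched on the sense strand as TTTTAT or TTTTAAT in the last 100 bases of the 3′ UTR of the longest principal transcript (GENCODE M21, assembly GRCm38). *Cnot8* (chr11:58104153-58118594, plus strand) was not searched. Of the 8 other genes, *Btg4*, *Cnot1*, *Cnot7*, *Pan2* and *Pan3* held it, while *Cnot6* (chr11:49671503-49712723, minus strand), *Cnot6l* (chr5:96070333-96164171, minus strand) and *Zfp36l2* (chr17:84183931-84187947, minus strand) did not, which says only that these letters are not in that window. Among all 12288 tested genes with a UTR of 100 bases or more, 19.8% held it. The 5 windows of 30 bases, each within 1 exon of the 3′ UTR, are printed 5′ to 3′ on the strand of the gene, with the CPE and any poly(A) signal (AATAAA or ATTAAA) in capitals.
Btg4, chr9:51119804-51119833, plus strand: tccctTTTTATgtctttttaaaagtttgat
Cnot1, chr8:95719497-95719526, minus strand: attgaTTTTATatatgtgagtacactgatg
Cnot7, chr8:40493036-40493065, minus strand: ttaaggtacaTTTTATatcAATAAAaatac
Pan2, chr10:128321324-128321353, plus strand: aAATAAAagtatTTTTATctcattagaaaa
Pan3, chr5:147548466-147548495, plus strand: gtattTTTTAATAAAgaattgcagaaataa

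The CPE begins 67 bases before the annotated transcript end in *Btg4*, 64 in *Cnot1*, 32 in *Pan3*, 20 in *Cnot7* and 18 in *Pan2*. *Btg4* and *Cnot1* hold no poly(A) signal in the last 100 bases, so that the end in use may differ from the annotated one. Both a CPE and a signal were held by 3 of the 8 genes (*Cnot7*, *Pan2* and *Pan3*), against 16.6% of the 12288 genes. In *Pan3* the element TTTTAAT and the signal AATAAA share the letters AAT and are read from 1 run of capitals, in *Pan2* the signal comes before the CPE, and in *Cnot7* it follows. The core AU-rich motif TATTTAT, which proteins of the ZFP36 family bind, occurred 3 times in the 3′ UTR of *Zfp36l2* itself, 3 times in *Cnot6l* and once each in *Cnot7* and *Pan3*. It was present in 29.8% of the 12288 genes.

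In wild-type FGOs the adaptor mRNA stood far above the rest of the machinery. *Btg4* ranked 41st of the 15784 genes tested by CPM, with 1225 ± 172 CPM (SD, n = 18), and 35th once levels were divided by exon length. Per kb of exon it reached 479 ± 67.4 CPM, against 80.1 ± 16.9 for *Cnot7*, 72.4 ± 8.71 for *Cnot6l* and 67.5 ± 7.32 for *Cnot8* (SD, n = 18 each). The lowest *Btg4* library exceeded the highest *Cnot7* library. *Cnot7*, *Cnot6l* and *Cnot8* overlapped with their neighbours in this order, *Cnot7* being the higher of the first pair in 15 of 18 libraries and *Cnot6l* of the second in 13.

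By this length *Pan3* followed at 27.9 ± 1.95 CPM per kb, then the scaffold *Cnot1* at 27.6 ± 2.10 and *Pan2* at 22.3 ± 3.42 (SD, n = 18 each). *Pan3* and *Cnot1* could not be ordered, since each was the higher in 9 of 18 libraries. *Zfp36l2* at 13.9 ± 5.27 and *Cnot6* at 9.45 ± 1.09 CPM per kb came last, with ranges that overlapped although *Zfp36l2* was the higher in all 18 libraries. The distances between genes depended on the length used. Per kb of the longest principal transcript, *Btg4* stood at 825 CPM, *Cnot7* at 156 ± 33.0 (SD, n = 18), *Cnot6l* at 87.2, *Cnot8* at 84.7 and *Pan3* at 82.6, so that *Pan3* lay beside the exonucleases. *Cnot1* (56.6), *Pan2* (42.6), *Cnot6* (25.0) and *Zfp36l2* (13.9) followed by that length. Of the CCR4-type exonucleases *Cnot6l* was the higher by both lengths.

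**Figure D1:**
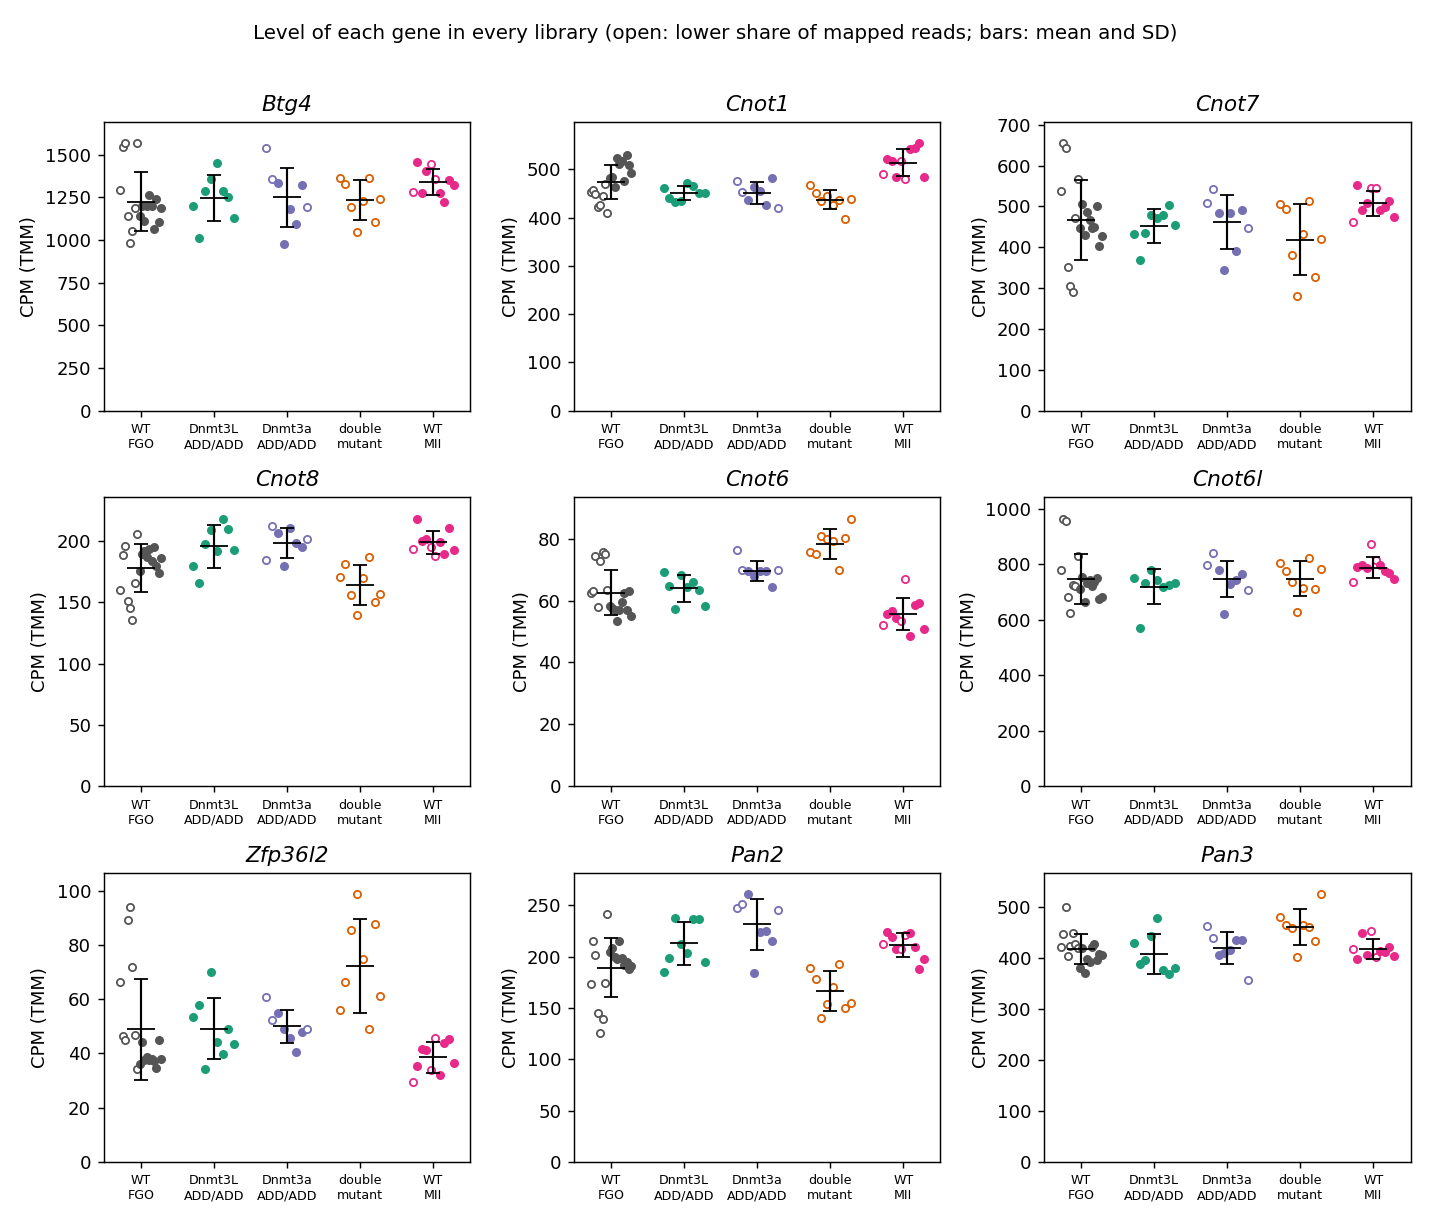
Each panel plots 1 gene, with CPM after TMM scaling on the y axis (from 0) and the 5 groups on the x axis. Points are single oocytes (open for the lower class of mapped reads, filled for the higher), and bars are the mean and SD. *Btg4* lies near 1200 CPM in every group, and *Zfp36l2* is spread from 34.1 to 94.0 CPM among wild-type FGOs, with the highest values in open points.

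From FGO to MII none of the 9 mRNAs was called over 2-fold higher or lower, and few genes of their level were. With an adjusted p under 0.05 and a change of over 2-fold, 0 of 9 genes were called in edgeR's quasi-likelihood test, where 9.2% of the 15784 genes were, nor in DESeq2 or edgeR's exact test (0 of 9 each). Without a minimum fold 4 of 9 passed, against 39.1% of all genes. *Cnot1* and *Cnot8* were higher in MII oocytes, and *Cnot6* and *Zfp36l2* were lower. At an unadjusted p under 0.05 there were 6 of 9, against 47.1% of all genes. The median change of the 9 genes was 0.12 on the log2 scale, with a range from -0.34 to 0.16, and that of all genes was -0.05.

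**Figure D2:**
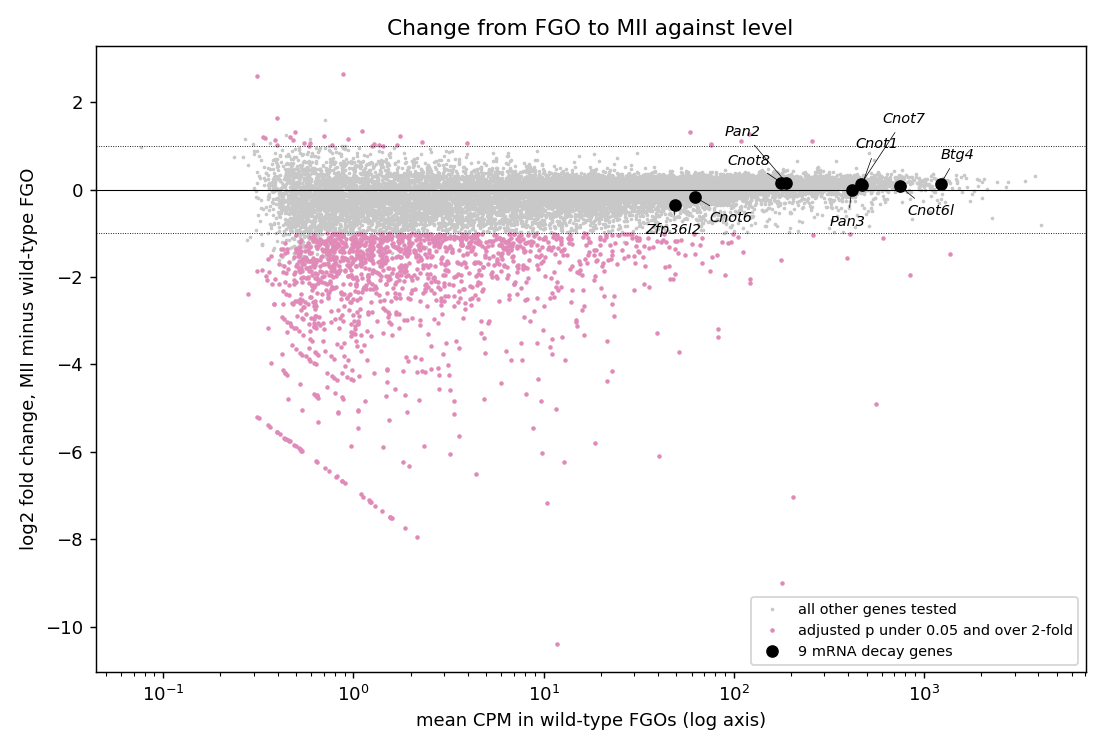
The plot sets the log2 fold change from wild-type FGOs to MII oocytes (y axis) against the mean CPM in wild-type FGOs (x axis, log scale) for 15784 genes. Pink points passed an adjusted p of 0.05 and 2-fold, and the 9 black points are the mRNA decay genes, all within 0.35 of 0. Pink points are densest at low levels, and the diagonal line at the lower left holds genes at 0 in MII oocytes, whose fitted change has no meaning as a size.

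The share of genes over 2-fold lower in MII oocytes was highest among mRNAs of low level, and the decay genes lie above that range. Of the 15784 genes, 1421 (9.0%) were over 2-fold lower and 31 (0.196%) over 2-fold higher in MII oocytes. Among genes under 1 CPM in wild-type FGOs 20.7% (468 of 2263) were over 2-fold lower, and among those of 1 to 10 CPM 14.9% (762 of 5131). The share was 3.02% (177 of 5869) from 10 to 100 CPM, the range of *Cnot6* and *Zfp36l2*. It was 0.532% (13 of 2445) from 100 to 1000 CPM, where 6 of the 9 genes lie, and 1 of 76 genes above 1000 CPM, where *Btg4* lies. A count of 0 among 9 genes is near the share of other genes of their level. The 1421 genes together took 1.33% ± 0.404 (SD, n = 18) of all counts in wild-type FGOs and 0.401% ± 0.0620 (SD, n = 10) in MII oocytes, values given as a description because the genes were picked by this difference. The 9 decay genes took 0.385% ± 0.0313 and 0.394% ± 0.0137 of the counts.

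The median change also rose with level. It was -0.34 for genes under 1 CPM, -0.24 from 1 to 10 CPM, 0.12 from 100 to 1000 CPM and 0.13 above 1000 CPM. The changes of *Btg4* (0.13), *Cnot7* (0.12), *Cnot1* (0.12), *Cnot8* (0.16) and *Pan2* (0.16) lie close to the median of the genes of their level, while *Cnot6l* (0.08) and *Pan3* (0.00) lie below it. *Cnot6* (-0.17) and *Zfp36l2* (-0.34) lie below the median of 0.01 for genes of 10 to 100 CPM. When libraries were scaled by their totals alone, the split of all genes past an adjusted p of 0.05 moved from 2610 higher and 3560 lower to 1614 higher and 4305 lower, and the change of *Btg4* became 0.06. Genes with a CPE in the last 100 bases were over 2-fold lower in 7.38% of cases (179 of 2427) and those without in 8.11% (800 of 9861). The 2 sets differ in level, with medians of 28.6 and 18.7 CPM in wild-type FGOs. By level the shares were 16.9% and 16.1% from 1 to 10 CPM and 2.43% and 2.46% from 10 to 100 CPM. From 100 CPM they were 0.0% and 0.393%. Over all levels, the share over 2-fold lower was 8.5% with TATTTAT anywhere in the UTR, and 7.74% without it. These shares were not tested.

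*Btg4*, the adaptor without which maternal mRNA persists in the mouse egg, ran from 983 to 1569 CPM in wild-type FGOs (median 1192) and from 1222 to 1460 in MII oocytes (median 1339). All 10 MII oocytes were above the wild-type median, but the ranges overlapped fully. The change was 0.13 on the log2 scale (95% interval 0.001 to 0.258, edgeR adjusted p = 0.104). Against wild-type FGOs of the higher class alone it was 0.21 (edgeR adjusted p = 0.00697), and against those of the lower class 0.06 (adjusted p = 0.538). Of the wild-type FGOs of the lower class, 3 stood above 1500 CPM. With only higher-class oocytes in both groups the change of *Btg4* was 0.17 (7 against 10 oocytes, edgeR adjusted p = 0.00143). With only lower-class oocytes it was 0.08 (3 against 8, edgeR adjusted p = 0.74). *Cnot1*, the scaffold on which the complex is built, ran from 410 to 530 CPM in wild-type FGOs (median 472) and from 480 to 555 in MII oocytes (median 518). It was higher by 0.12 on the log2 scale (standard error, SE, 0.04, edgeR adjusted p = 0.00711), with all 10 MII oocytes above the wild-type median and overlapping ranges. The difference was 0.23 against the lower class of wild-type FGOs (adjusted p = 3.53e-06) and 0.06 against the higher (adjusted p = 0.208), both from edgeR.

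Of the CAF1-type exonucleases *Cnot8* passed the test and *Cnot7* did not. *Cnot7* ran from 290 to 656 CPM in wild-type FGOs (median 459) and from 462 to 553 in MII oocytes (median 503), a change of 0.12 whose interval includes 0 (-0.06 to 0.31, edgeR adjusted p = 0.293). *Cnot8* ran from 135 to 206 CPM (median 185) and from 188 to 218 (median 197). It was higher in MII oocytes by 0.16 (SE 0.05, edgeR adjusted p = 0.0112), with all 10 above the wild-type median, and the ranges overlapped. Against the lower class of wild-type FGOs *Cnot8* differed by 0.25 (adjusted p = 0.00153) and against the higher by 0.11 (adjusted p = 0.062), both from edgeR. With only higher-class oocytes in both groups the differences were 0.13 for *Cnot7* and 0.11 for *Cnot8* (7 against 10 oocytes, adjusted p = 0.0238 and 0.0248 from edgeR).

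Of the CCR4-type exonucleases *Cnot6* passed the test and *Cnot6l* did not. *Cnot6l*, the more abundant of the pair, ran from 625.3 to 963.8 CPM in wild-type FGOs (median 728) and from 734 to 873 in MII oocytes (median 787). All 10 MII oocytes were above the wild-type median, and the change of 0.08 (95% interval -0.03 to 0.18) did not pass the test (edgeR adjusted p = 0.257). Within the higher class it was 0.11 and passed (7 against 10 oocytes, edgeR adjusted p = 0.00585). *Cnot6* ran from 53.3 to 75.8 CPM (median 61.0) and from 48.6 to 67.0 (median 55.0), and 9 of 10 MII oocytes were below the wild-type median. It was lower by 0.17 (log2 fold change -0.17, SE 0.05, edgeR adjusted p = 0.00889). Against the lower class of wild-type FGOs the value was -0.28 (adjusted p = 9.04e-05), and against the higher class -0.05 (adjusted p = 0.498), both from edgeR.

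*Zfp36l2*, which female mice need for fertility, was the most variable of the 9 genes. It ran from 34.1 to 94.0 CPM in wild-type FGOs (median 41.4) and from 29.5 to 45.6 in MII oocytes (median 39.0). Of the 10 MII oocytes 5 were above and 5 below the wild-type median, so that the difference of the means (48.9 ± 18.6, SD, n = 18, and 38.5 ± 5.75, SD, n = 10) rests on the upper part of the wild-type range. The log2 fold change was -0.34 (SE 0.14, edgeR adjusted p = 0.0465). The call was lost when any 1 of 14 libraries was left out, among them wild-type replicate 4 (-0.265, adjusted p = 0.109) and replicate 5 (-0.255, adjusted p = 0.116), which brought the change closest to 0 (edgeR). Wild-type FGOs of the lower class stood at 61.8 ± 22.1 CPM (SD, n = 8) and those of the higher class at 38.7 ± 3.28 (SD, n = 10). Against the higher class the change in MII oocytes was 0.01 (95% interval -0.20 to 0.22, edgeR adjusted p = 0.959), and against the lower class the change was -0.67 (edgeR adjusted p = 0.00031). Within a class it was 0.02 for 7 against 10 oocytes and -0.76 for 3 against 8 (adjusted p = 0.881 and 0.107 from edgeR).

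Neither gene of the other deadenylase passed the test against all wild-type FGOs. *Pan2*, its catalytic subunit, ran from 125 to 242 CPM in wild-type FGOs (median 196) and from 188 to 224 in MII oocytes (median 211), with 9 of 10 MII oocytes above the wild-type median. The change was 0.16 (95% interval 0.02 to 0.29, edgeR adjusted p = 0.0617), and it passed when any 1 of 12 libraries was left out (lowest adjusted p = 0.0254, without wild-type replicate 8). It also passed against the lower class of wild-type FGOs (0.27, edgeR adjusted p = 0.0113) but not against the higher (0.10, edgeR adjusted p = 0.195). *Pan3*, its adaptor, ran from 370 to 500 CPM (median 419) and from 398 to 452 (median 413). Its change was 0.00 (95% interval -0.08 to 0.09, edgeR adjusted p = 0.986), the sign turned with small changes of the fit, and the ranges overlapped fully.

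The coefficient of variation between oocytes was 14.1% in wild-type FGOs and 5.88% in MII oocytes for *Btg4*, 21.1% and 6.11% for *Cnot7*, and 38.0% and 14.9% for *Zfp36l2*. Over all libraries it was lower in MII oocytes for all 9 genes. With only higher-class oocytes (7 against 10) it was higher in MII oocytes for 6 of the 9 genes, with 5.39% in wild-type FGOs and 6.18% in MII oocytes for *Btg4* and 8.49% and 12.2% for *Zfp36l2*, and lower for *Cnot6l*, *Cnot7* and *Pan3*. These differences in spread were not tested. In the lower class *Btg4* stood at 1292 ± 240 CPM in wild-type FGOs (SD, n = 8), against 1172 ± 63.2 (SD, n = 10) in the higher class.

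The mutants were compared to see whether the ADD mutations change the oocyte's transcripts, here those of the decay machinery. The 3 mutants share the 18 wild-type FGOs as controls, so that their differences are not independent. With the 2-fold limit 0 of 9 genes passed in each mutant in edgeR's quasi-likelihood test, in its exact test and in DESeq2, where 0.655% of 15726 genes did for *Dnmt3L* ADD/ADD, 2.05% for the *Dnmt3a* allele and 1.65% for both alleles. Without a minimum fold 0, 2 and 3 of the 9 genes passed, against 6.13%, 15.7% and 12.2% of all genes. At an unadjusted p under 0.05 there were 2, 3 and 6 of 9, against 22.5%, 30.7% and 29.0% of all genes. *Btg4* stood at 1247 ± 136, 1250 ± 174 and 1234 ± 118 CPM (SD, n = 8 each) beside 1225 ± 172 in the wild type (SD, n = 18), with ranges that overlapped. The intervals of its difference ran from -0.13 to 0.18, from -0.12 to 0.18 and from -0.15 to 0.16 on the log2 scale.

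**Figure D3:**
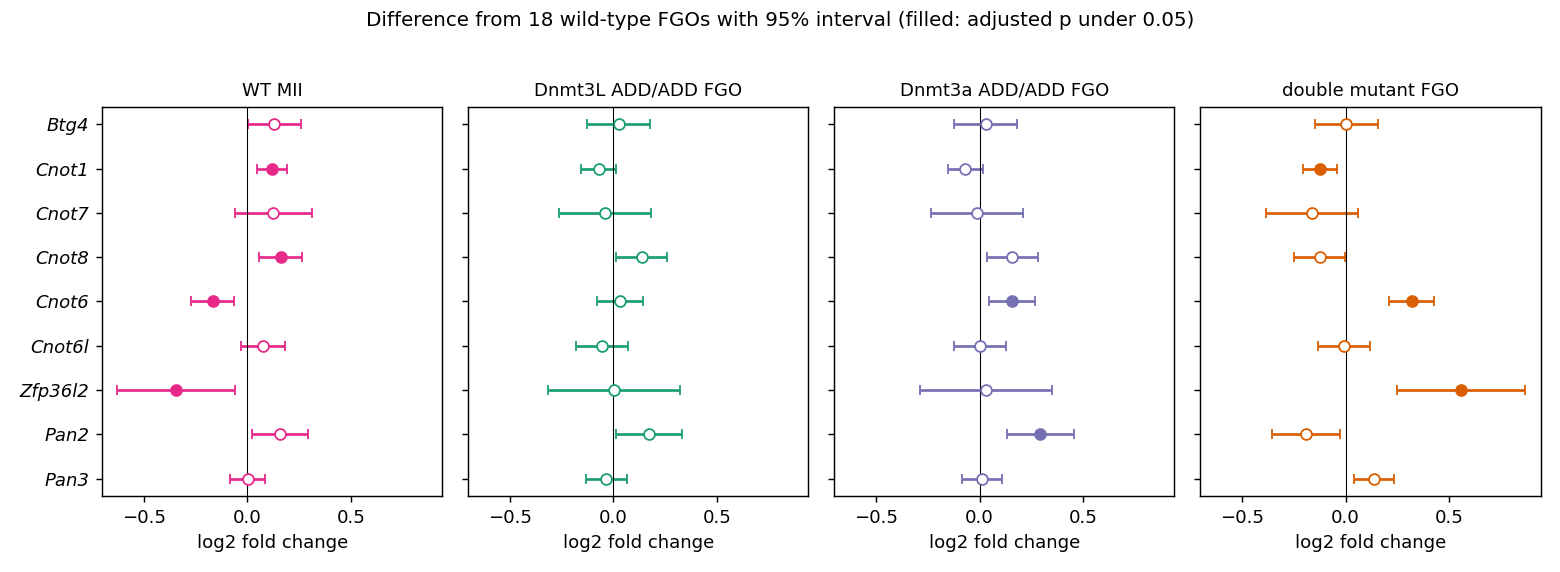
The log2 fold change of each gene against the 18 wild-type FGOs is plotted for MII oocytes and the 3 mutants, with 95% intervals from edgeR. Filled points passed an adjusted p of 0.05. No interval reaches 1 or -1, and *Zfp36l2* in double mutant FGOs (0.56) is the value farthest from 0.

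In *Dnmt3L* ADD/ADD FGOs none of the 9 passed (edgeR), and at an unadjusted p under 0.05 there were *Cnot8* (0.14, 95% interval 0.01 to 0.26) and *Pan2* (0.17, 95% interval 0.01 to 0.33). DESeq2 called none either. Against the 10 wild-type FGOs of their own class, *Cnot1* was lower (-0.14, adjusted p = 0.00823) and *Cnot6* higher (0.14, adjusted p = 0.0462), both from edgeR.

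In *Dnmt3a* ADD/ADD FGOs *Pan2* ran from 184 to 261 CPM (median 235), beside 125 to 242 in the wild type, and 7 of 8 oocytes were above the wild-type median. It was higher by 0.29 (SE 0.08, edgeR adjusted p = 0.01). The ranges overlapped, and leaving out any 1 library kept the call, with an adjusted p of at most 0.0369. Within the higher class the difference was 0.16 (5 against 10 oocytes, adjusted p = 0.0879) and within the lower 0.49 (3 against 8, adjusted p = 0.135), both from edgeR. With all 8 mutant oocytes kept, it passed against wild-type FGOs of the higher class (0.22, edgeR adjusted p = 0.0132). It also passed against those of the lower class (0.385, adjusted p = 0.00548) and with the class as a term (0.29, adjusted p = 0.00935), both from edgeR. *Cnot6* ran from 64.5 to 76.2 CPM, all 8 oocytes above the wild-type median of 61.0, with a difference of 0.16 (edgeR adjusted p = 0.042) that was lost when any 1 of 19 libraries was left out (highest adjusted p = 0.119, without *Dnmt3a* ADD/ADD replicate 1). Within the higher class *Cnot6* was higher by 0.24, *Zfp36l2* was higher by 0.30 and *Cnot1* differed by -0.14 (adjusted p = 0.00594, 0.0152 and 0.0425 from edgeR), while within the lower class the values were 0.08, -0.19 and 0.03 and none passed.

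In double mutant FGOs *Cnot6* ran from 70.03 to 86.48 CPM (median 79.4), above the wild-type median in all 8 oocytes and overlapping only with the top of the wild-type range. It was higher by 0.32 (SE 0.05, edgeR adjusted p = 0.000159). *Zfp36l2* ran from 48.9 to 98.7 CPM (median 70.5), also above the wild-type median in all 8, and was higher by 0.56 (SE 0.15, edgeR adjusted p = 0.016). Without double mutant replicate 4 its adjusted p was 0.0552 (0.48). *Cnot1* ran from 398 to 467 CPM (median 438), below the wild-type median in all 8, and was lower, with a log2 fold change of -0.12 (SE 0.04, edgeR adjusted p = 0.0426). That call was lost when any 1 of 15 libraries was left out, with the highest adjusted p, 0.121, without double mutant replicate 7.

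All double mutant FGOs are of the lower class, and against the 8 wild-type FGOs of that class none of the 3 calls held. There *Cnot6* differed by 0.20 (95% interval 0.08 to 0.32, adjusted p = 0.0728), *Zfp36l2* by 0.22 (95% interval -0.12 to 0.57, adjusted p = 0.686) and *Cnot1* by -0.02 (adjusted p = 0.923), all from edgeR. Against the 10 wild-type FGOs of the higher class the differences were 0.43, 0.90 and -0.19, with adjusted p-values of 6.02e-09, 1.59e-07 and 4.49e-05. With the class as a term of the fit *Cnot6* still passed (0.22, edgeR adjusted p = 0.0102). For *Pan3* (0.14, 95% interval 0.04 to 0.23), *Pan2* (-0.19, 95% interval -0.36 to -0.03), *Cnot8* (-0.13, 95% interval -0.249 to -0.002) and *Cnot7* (-0.16, 95% interval -0.38 to 0.06) the differences from all wild-type FGOs did not pass.

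**Figure D4:**
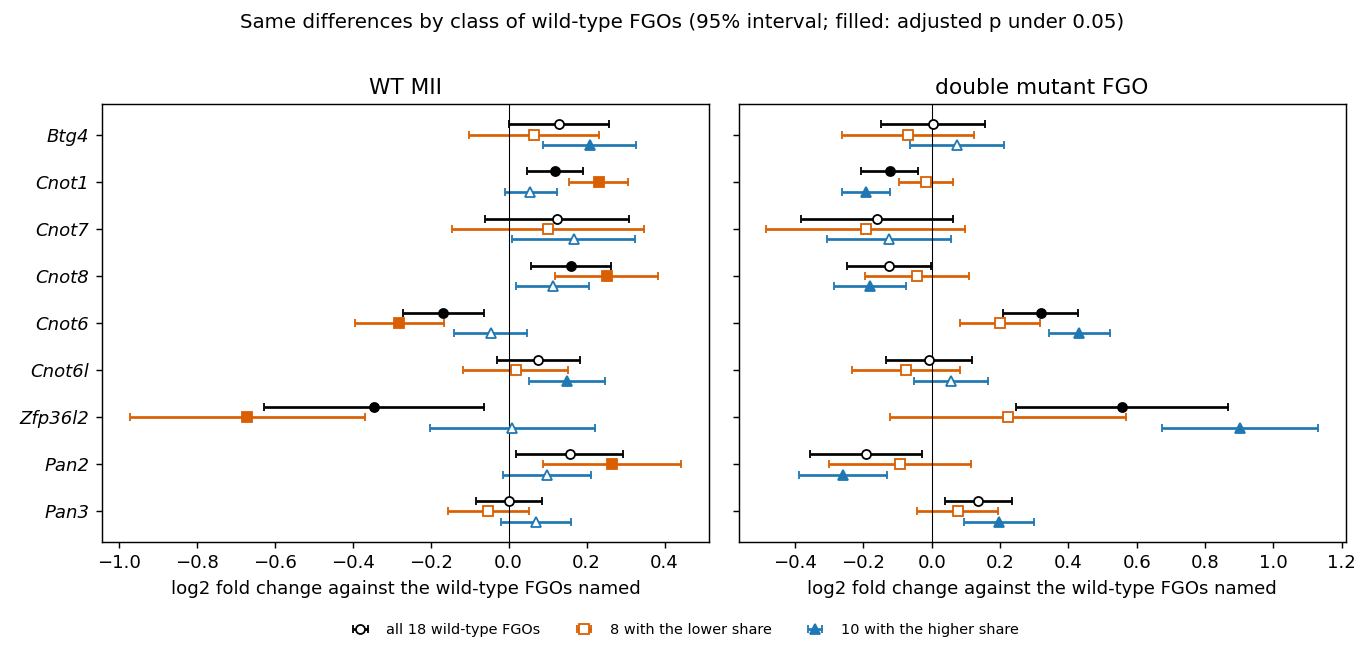
The differences of MII oocytes (left) and double mutant FGOs (right) are plotted against all 18 wild-type FGOs (black), the 8 of the lower class (orange) and the 10 of the higher class (blue), as log2 fold changes with 95% intervals (filled, adjusted p under 0.05). *Zfp36l2* in MII oocytes moves from -0.67 to 0.01 with the class, and in double mutant FGOs from 0.22 to 0.90.

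The double mutant did not show the sum of the single mutants' differences for 2 genes. The non-additive effect, the difference of the double mutant from the sum of both single mutants, was -0.66 for *Pan2* (95% interval -0.91 to -0.41, edgeR adjusted p = 0.000103) and -0.42 for *Cnot8* (95% interval -0.61 to -0.23, edgeR adjusted p = 0.000658). At the same threshold 35.6% of all 15726 genes passed, so that 2 of 9 is no more than the background. *Pan2* stood at 189 ± 28.9 CPM in the wild type (SD, n = 18), at 213 ± 20.9 and 232 ± 24.8 in the single mutants and at 166 ± 19.4 in the double mutant (SD, n = 8 each). *Cnot8* stood at 178 ± 19.3, 196 ± 17.3, 198 ± 12.0 and 164 ± 16.2 CPM in the same order. Both genes were thus highest in the single mutants and lowest in the double mutant. As the *Dnmt3L* ADD/ADD FGOs are all of the higher class and the double mutant FGOs all of the lower, genotype and class cannot be told apart in the difference between those groups. With the class as a term the values were -0.59 and -0.32 (adjusted p = 0.00565 and 0.0404 from edgeR).

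The balance of paired mRNAs was followed by ratios within a library, which do not depend on scaling. Proteins and the make-up of the complexes were not measured. Counts per kb of exon of 2 paired genes were divided. The size of a ratio therefore depends on the length used, as the levels above do, while its difference between groups does not. The mean log2 ratio of each group was set against that of wild-type FGOs by a permutation test (two-sided, exact for groups of 8). P was adjusted over 16 tests, of which 4 passed. *Cnot6l* to *Cnot6* was 7.66 in wild-type FGOs and 9.10 in MII oocytes, a log2 difference of 0.25 (p = 0.00159, adjusted p = 0.0127, permutation test). In double mutant FGOs it was 6.09, a log2 difference of -0.33 (p = 0.000801, adjusted p = 0.0127, exact permutation test). The ratio in MII oocytes was also larger than in wild-type FGOs of each class alone (0.31 with an adjusted p of 0.034 and 0.20 with an adjusted p of 0.00539, permutation tests), while that of double mutant FGOs missed the threshold against their own class (-0.27, adjusted p = 0.115, exact permutation test).

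*Pan3* to *Pan2* was 1.26 in the wild type, 1.03 with the *Dnmt3a* allele and 1.57 with both alleles, so that it fell in one mutant and rose in the other, with log2 differences of -0.29 and 0.32 (adjusted p = 0.0421 and 0.0317, exact permutation tests). Against wild-type FGOs of the lower class the values were -0.47 (adjusted p = 0.034) and 0.14 (adjusted p = 0.453), and against the higher class -0.15 (adjusted p = 0.101) and 0.46 (adjusted p = 0.000366), all by exact permutation tests. *Cnot7* to *Cnot8* stayed between 1.05 and 1.17 in all 5 groups and *Btg4* to *Cnot7* between 6.01 and 6.81, and no difference of these from all wild-type FGOs passed. Against wild-type FGOs of the higher class *Btg4* to *Cnot7* was larger in double mutant FGOs (0.22, adjusted p = 0.00539, exact permutation test). *Cnot6l* to *Cnot6* was smaller in *Dnmt3a* ADD/ADD FGOs against the higher class (-0.21, adjusted p = 0.00592), but not the lower (-0.10, adjusted p = 0.467). *Pan3* to *Pan2* was smaller in MII oocytes against the lower class (-0.35, adjusted p = 0.034), but not the higher (-0.03, adjusted p = 0.588). These are from permutation tests.

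**Figure D5:**
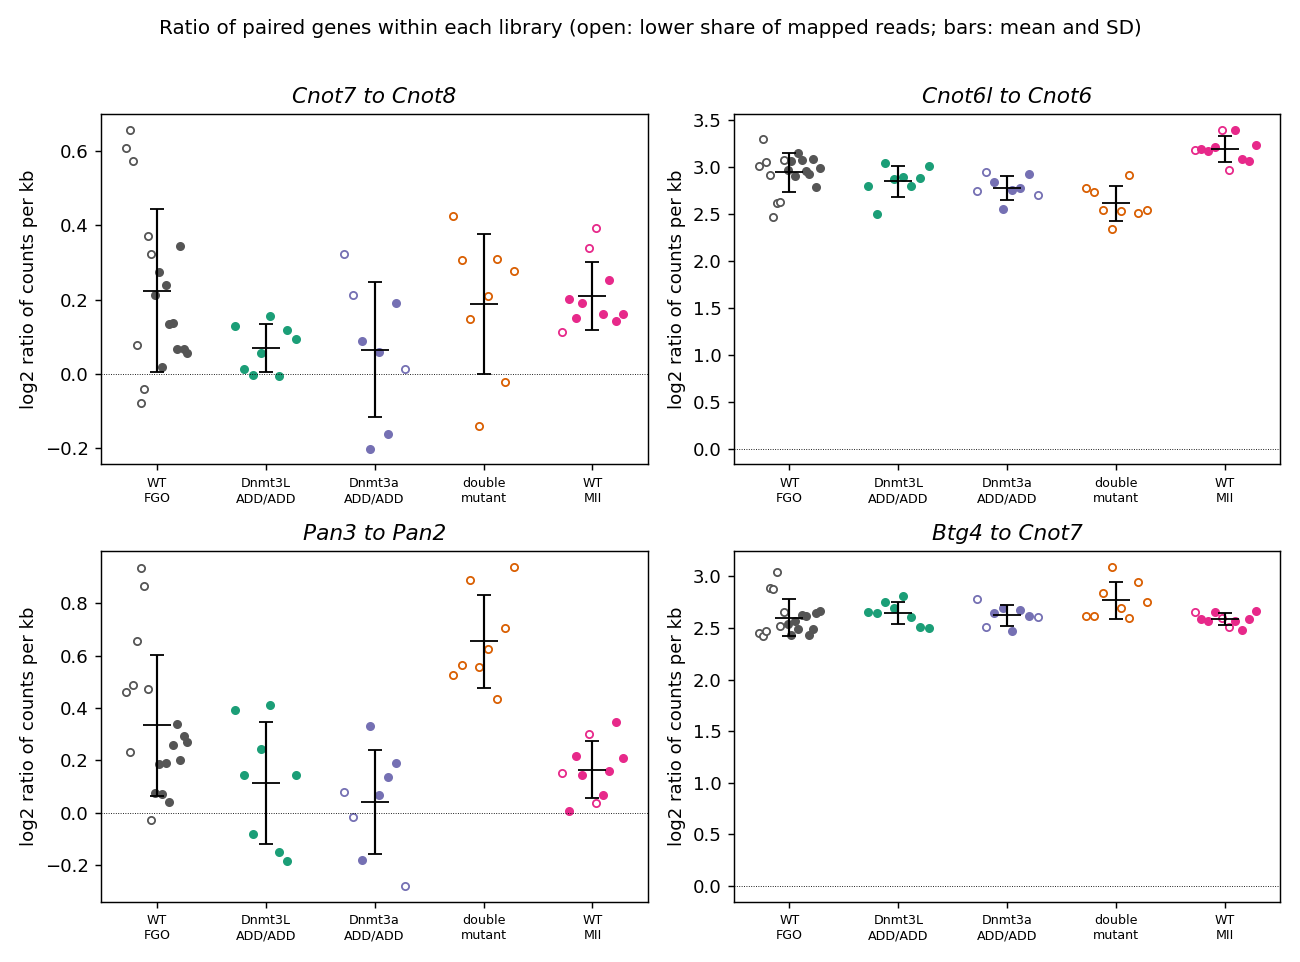
The log2 ratio of counts per kb is plotted for 4 pairs of genes (y axes) in every library of the 5 groups (open points, lower class; filled points, higher class; bars, mean and SD). *Cnot6l* to *Cnot6* runs from 2.46 to 3.29 in wild-type FGOs and from 2.96 to 3.39 in MII oocytes, and the mean of *Pan3* to *Pan2* is highest in double mutant FGOs.

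Across oocytes several of the genes varied together. Over the 18 wild-type FGOs Pearson's r of log2 CPM was 0.90 between *Btg4* and *Cnot6l*, 0.87 between *Btg4* and *Cnot7* and 0.93 between *Cnot8* and *Pan2*. These pairs were not separate sets, since r was 0.75 between *Cnot7* and *Cnot8* and 0.80 between *Cnot7* and *Pan2*. *Zfp36l2* went the other way, with r = -0.89 to *Pan2* and -0.85 to *Cnot8*. The points share the scaling of each library and the class of mapped reads, and r is given as a description. Over all 52 libraries the genes most like *Btg4* among 8315 genes of at least 10 CPM were *Cdc42se2* (r = 0.90), *Depdc7* (0.89), *Akirin2* (0.88), *Omt2b* (0.87) and *Tm9sf2* (0.87).

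The rest of the decay machinery was followed in 6 lists of 78 related genes, of which 75 were tested. In MII oocytes 18 were higher and 25 lower at an adjusted p under 0.05, against 16.5% and 22.6% of all genes. Over 2-fold lower were 4 of the 75, against 9.0% of all genes, so that this count is not above the background. The other CCR4-NOT subunits and BTG or TOB adaptors (4 higher and 2 lower of 11) had no member past 2-fold. *Cnot3*, a subunit of the NOT module, rose from 365 to 706 CPM in wild-type FGOs to 720 to 794 in MII oocytes, without overlap (log2 fold change 0.40, SE 0.07, edgeR adjusted p = 3.99e-05). *Cnot4*, a ubiquitin ligase, rose by 0.32 (adjusted p = 1.56e-05). The adaptors *Tob1* (-0.43, adjusted p = 0.0309) and *Btg2* (-0.41, adjusted p = 0.00145) fell, all from edgeR.

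Among poly(A)-binding proteins (0 higher and 2 lower of 7), *Pabpc1*, the main cytoplasmic one of somatic cells, fell from 55.6 ± 22.6 CPM (SD, n = 18) to 19.6 ± 6.12 (SD, n = 10). Its log2 fold change was -1.503 (SE 0.22, edgeR adjusted p = 4.74e-07), and the ranges overlapped only between 31.5 and 31.8 CPM. *Pabpc4* fell by 0.12 (log2 fold change -0.12, edgeR adjusted p = 0.0236). Among the exosome, SKI complex and terminal uridylyl transferases (3 higher and 6 lower of 17), *Zcchc11*, a transferase that adds uridine to short tails, fell from 2.90 to 27.5 CPM in wild-type FGOs to 0.145 to 2.10 in MII oocytes, without overlap. Its log2 fold change was -3.50 (SE 0.41, edgeR adjusted p = 7.88e-10). *Exosc4* (-0.96), *Skiv2l* (-0.69) and *Exosc7* (-0.57) fell as well, with adjusted p-values of 3.53e-06, 0.000812 and 1.29e-07 from edgeR.

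In the decapping list (2 higher and 8 lower of 18) the genes with the most change among those that passed were the enhancer *Edc3* (-1.32), the helicase *Ddx6* (-0.86), *Patl2* (-0.52) and *Lsm1* (-0.51), with adjusted p-values of 0.00429, 0.00475, 0.0172 and 0.0125 from edgeR. *Edc3* stood at only 1.51 CPM in wild-type FGOs. Other poly(A) nucleases and AU-rich element binding proteins (4 higher and 3 lower of 11) included *Zfp36l1*, a relative of *Zfp36l2*, at 0.780 CPM in wild-type FGOs (-1.28, adjusted p = 0.00728), *Toe1* (-0.54, adjusted p = 0.026), *Khsrp* (0.24, adjusted p = 0.000328) and *Hnrnpd* (0.24, adjusted p = 0.0193), all from edgeR. Among proteins that select mRNAs (5 higher and 4 lower of 11), the m6A readers *Ythdf1* (-0.49) and *Ythdf2* (-0.32) fell and *Igf2bp2* rose (0.28), with adjusted p-values of 0.009, 0.0189 and 4.73e-06 from edgeR.

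In the mutants the same 75 genes gave 3 higher and 3 lower with the *Dnmt3L* allele (3.07% and 3.06% of all genes), 15 and 7 with that of *Dnmt3a* (8.06% and 7.61%), and 6 and 11 with both (5.51% and 6.74%). In *Dnmt3L* ADD/ADD FGOs the exosome subunit *Exosc2* fell without overlap, from 5.45 to 11.7 CPM in the wild type to 3.65 to 5.25 (-0.70, edgeR adjusted p = 0.00769). *Exosc3* (0.36, adjusted p = 0.000469) and *Khsrp* (0.25, adjusted p = 0.013) rose, and the LSM subunits *Lsm5* (-0.38, adjusted p = 0.00535) and *Lsm2* (-0.31, adjusted p = 0.00925) fell, all from edgeR.

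In *Dnmt3a* ADD/ADD FGOs 7 of 17 genes of the exosome list were higher and 1 lower. *Exosc7*, a ring subunit of the exosome, ran from 21.5 to 26.6 CPM, beside 12.8 to 21.7 in the wild type, and rose by 0.41 (adjusted p = 0.000589), and *Exosc9* fell (-0.49, adjusted p = 0.00144), both from edgeR. *Pabpc1* was over 2-fold lower (-1.19, adjusted p = 0.000955), and *Lsm2* (-0.41, adjusted p = 0.00022), *Patl2* (-0.58, adjusted p = 0.0485), *Zfp36* (-0.36, adjusted p = 0.0328) and *Ythdf1* (-0.49, adjusted p = 0.0486) fell too (edgeR). *Khsrp* (0.28, adjusted p = 0.00205), *Pabpn1* (0.35, adjusted p = 0.0368), *Cnot10* (0.19, adjusted p = 0.0461) and *Igf2bp3* (0.16, adjusted p = 0.0461) rose (edgeR).

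In double mutant FGOs *Zcchc11* (-1.15, adjusted p = 0.0316) and *Zfp36l1* (-1.497, adjusted p = 0.0164) were over 2-fold lower (edgeR). *Cnot3* (-0.33, adjusted p = 0.0188), *Hnrnpd* (-0.47, adjusted p = 0.00287), *Pabpn1* (-0.52, adjusted p = 0.00707), *Lsm7* (-0.51, adjusted p = 0.00562), the exosome nuclease *Dis3* (-0.29, adjusted p = 0.0171) and the nuclear m6A reader *Ythdc1* (-0.39, adjusted p = 0.0304) fell (edgeR). *Tob1* (0.67, adjusted p = 0.013), *Lsm1* (0.68, adjusted p = 0.0124) and *Ythdc2* (0.27, adjusted p = 0.0419) rose (edgeR). These related genes were not set against wild-type FGOs of 1 class.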

How the data were processed

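The authors prepared single-oocyte libraries with the SMART-Seq HT kit, and aligned the reads to mm10 with STAR. They deposited raw counts per gene, whole numbers without normalization, for 52 oocyte libraries. For counting, the study names featureCounts and HTSeq, and the submitters' processing notes HTSeq. The annotation release and the strand setting are not given in the sources used here; the bounds of all 9 genes equal those of GENCODE M21. *Cnot1* shares 132 exon bases with *4930513N10Rik* and *Cnot7* shares 247 with *Zdhhc2*, each on the opposite strand, with median counts of 79 and 8 in wild-type FGOs beside 7480 and 7528, so that reads there are uncertain. Allelic tables of embryos were not used here.

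From these counts, quasi-likelihood tests were run with edgeR 4.0.16 (R 4.3.3) after TMM scaling, on genes that filterByExpr kept at its minimum of 10 counts. P-values were adjusted over all genes tested (Benjamini-Hochberg). MII oocytes were tested in a fit of 52 libraries (15784 genes, biological coefficient of variation 23.8%), and the mutants in a fit of the 42 FGO libraries (15726 genes, 25.2%). Calls used an adjusted p under 0.05, with and without a fold change over 2. Standard errors and 95% intervals belong to the log2 fold changes. Counts behind the 9 genes ran from 341 (*Zfp36l2*) to 24763 (*Btg4*) per library. For *Btg4* counting error is small beside the spread between oocytes, but not for every gene and group. *Cnot6* in *Dnmt3a* ADD/ADD FGOs had 582 to 1315 counts and a coefficient of variation of 4.63%. There counting error can be a large part of the spread. Ratios were tested by permutation (100000 resamples for MII oocytes, exact for the mutants). No 2 libraries of a group agreed within counting noise (lowest chi-square per degree of freedom 5.39).

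The class of mapped reads came from the study's sequencing summary. Alternatives were DESeq2 1.42.0, edgeR's exact test, RLE size factors, library totals, no filter beyond 1 count, robust estimation, other sets of libraries, 1 class of wild-type FGOs, the class as a term, the replicate number as a block, and each library left out in turn. Comparisons within a class for MII and *Dnmt3a* ADD/ADD oocytes, and the order by principal transcript, were added after the data had been seen. The genes, the related lists and the marker lists were chosen with earlier results of these data known. Named were all 9 genes, per related list up to 4 genes (MII) or 2 genes (each mutant) with the largest change among those with an adjusted p under 0.05, and the 5 genes that correlated most with *Btg4*. A gene that this rule named is not reported here. Sequences were read from the GENCODE M21 transcripts. Figures were drawn with matplotlib.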

Additional observations from a re-analysis of the deposited data

Results flagged for a closer look

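Over 36 groups of 8 or 10 libraries (9 genes in 4 groups each), 2 held a library set apart from the others by Dixon's criterion, which chance alone meets in about 1 in 20 groups. *Cnot6* stood at 76.2 CPM in *Dnmt3a* ADD/ADD replicate 1, where the next library had 70.03 (gap over range 0.527). *Cnot6l* stood at 571 CPM in *Dnmt3L* ADD/ADD replicate 2, where the next library had 718 (gap over range 0.707). The effect of one mutation differed with the other for *Pan2* (non-additive effect -0.66, edgeR adjusted p = 0.000103) and *Cnot8* (-0.42, edgeR adjusted p = 0.000658).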

How the results depend on the processing

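With the 2-fold limit 0 of 9 genes were called in every comparison with wild-type FGOs under every alternative run. Without a minimum fold, the 4 calls in MII oocytes became 2 with library totals (*Cnot6* and *Zfp36l2*). They became 2 against wild-type FGOs of the higher class (*Btg4* and *Cnot6l*, none of the 4) and 5 against the lower class (*Pan2* added). With lower-class libraries alone (3 against 8 oocytes) there were 0. With higher-class libraries alone the 4 were *Btg4*, *Cnot6l*, *Cnot7* and *Cnot8*. With the class as a term *Btg4* passed (0.15, edgeR adjusted p = 0.0494) in place of *Zfp36l2* (-0.24, adjusted p = 0.139). Leaving out 1 library gave 3 to 6 calls. In *Dnmt3L* ADD/ADD FGOs the count of 0 became 1 against lower-class wild-type FGOs, 2 against the higher class and 1 with the class as a term. In *Dnmt3a* ADD/ADD FGOs the 2 calls became 1 with no filter, with only the groups compared or with the exact test, 0 with lower-class libraries alone and 4 against higher-class wild-type FGOs, and leaving out 1 library gave 1 to 2. In double mutant FGOs the 3 calls became 0 against lower-class wild-type FGOs, 6 against the higher class and 1 with the class as a term, and leaving out 1 library gave 2 to 5, with 5 without wild-type replicate 5 or 6. The 2 non-additive calls became 5 against lower-class wild-type FGOs. The cause was not tested.

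The replicate numbers do not pair the oocytes (82 pairs, r from -0.514 to 0.468, 14 above 0.1, 6 libraries closest to their own number), and wild-type replicates 1 to 8 are all of the lower class. With the replicate block the 3 calls in double mutant FGOs became 0 and the 2 non-additive calls became 5. With it the sign turned for *Btg4* (-0.043), *Cnot1* (0.036), *Cnot6l* (-0.063), *Pan3* (-0.052) and *Zfp36l2* (-0.260) in *Dnmt3a* ADD/ADD FGOs, for *Btg4* (-0.033), *Cnot1* (0.033), *Cnot6* (-0.087) and *Zfp36l2* (-0.314) in *Dnmt3L* ADD/ADD FGOs, for *Btg4* (-0.065) in double mutant FGOs, for *Pan3* (-0.039) in MII oocytes and for the non-additive values of *Btg4* (0.012) and *Cnot1* (-0.087).

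Of the values called against all wild-type FGOs, the sign turned for *Zfp36l2* in MII oocytes, with wild-type FGOs of the higher class (0.0098) and with higher-class libraries alone (0.019). All other values whose sign turned were uncalled against all wild-type FGOs. Some of them passed against or within 1 class, as given above for *Cnot1*, *Cnot6* and *Zfp36l2* in the single mutants. With lower-class wild-type FGOs these were, in *Dnmt3a* ADD/ADD FGOs, *Btg4* (-0.052), *Cnot1* (0.029), *Cnot6l* (-0.075), *Pan3* (-0.059), *Zfp36l2* (-0.310) and the ratio *Btg4* to *Cnot7* (-0.042), in *Dnmt3L* ADD/ADD FGOs *Btg4* (-0.052), *Cnot1* (0.030), *Cnot6* (-0.091), *Zfp36l2* (-0.336) and that ratio (-0.020), *Btg4* in double mutant FGOs (-0.070), *Pan3* in MII oocytes (-0.052), and the non-additive values of *Btg4* (0.034) and *Cnot1* (-0.076). With higher-class wild-type FGOs these were *Cnot7* in *Dnmt3a* ADD/ADD (0.021), *Cnot6l* (0.0056) and *Pan3* (0.023) in *Dnmt3L* ADD/ADD, *Cnot6l* (0.057) and *Cnot7* to *Cnot8* (0.034) in double mutant FGOs, *Cnot7* to *Cnot8* (0.056) and *Btg4* to *Cnot7* (0.038) in MII oocytes, and the non-additive value of *Cnot6l* (-0.011). With lower-class libraries alone they were *Cnot1* (0.030), *Cnot6l* (-0.0043), *Cnot7* (0.070), *Pan3* (-0.053) and *Zfp36l2* (-0.191) in *Dnmt3a* ADD/ADD FGOs and *Pan3* in MII oocytes (-0.036). With the class as a term they were *Cnot7* (0.0033) and *Pan3* (0.0019) in *Dnmt3L* ADD/ADD FGOs, *Btg4* in double mutant FGOs (-0.083) and the non-additive values of *Cnot6* (-0.071), *Cnot6l* (-0.080) and *Zfp36l2* (-0.088).

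With library totals they were *Btg4* (-0.0077), *Cnot6l* (-0.036), *Pan3* (-0.029) and *Zfp36l2* (-0.024) in *Dnmt3a* ADD/ADD FGOs, *Btg4* (-0.00052) and *Zfp36l2* (-0.041) in *Dnmt3L* ADD/ADD FGOs, *Cnot6l* in double mutant FGOs (0.013), *Pan3* in MII oocytes (-0.068) and the non-additive value of *Btg4* (0.032). Values near 0 turned for *Cnot6l* in *Dnmt3a* ADD/ADD FGOs with all 52 libraries (-0.0006) and with only the groups compared or the exact test (-0.00013 each), for *Pan3* in MII oocytes with the last pair of settings (-0.00059 and -0.00049), for *Zfp36l2* in *Dnmt3L* ADD/ADD FGOs (-0.00014) and *Btg4* in double mutant FGOs (-2.8e-05) with no filter, and for the latter with RLE size factors and DESeq2 (-0.0016 each). Leaving out 1 library gave ranges across 0 for *Btg4* (-0.012 to 0.052 in *Dnmt3L* ADD/ADD, -0.026 to 0.059 in *Dnmt3a* ADD/ADD, -0.020 to 0.033 in double mutant FGOs, -0.071 to 0.006 for the non-additive value), *Cnot6l* (-0.031 to 0.020 in *Dnmt3a* ADD/ADD, -0.030 to 0.023 in double mutant FGOs), *Cnot7* (-0.055 to 0.025) and *Pan3* (-0.018 to 0.034) in *Dnmt3a* ADD/ADD FGOs, *Pan3* in MII oocytes (-0.012 to 0.032), and *Zfp36l2* (-0.086 to 0.081 in *Dnmt3L* ADD/ADD, -0.019 to 0.112 in *Dnmt3a* ADD/ADD).

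The count of genes over 2-fold higher and lower in MII oocytes (31 and 1421) was 166 and 4034 with no filter, 155 and 1744 against lower-class and 21 and 788 against higher-class wild-type FGOs, and 121 and 1585 with the block on the replicate number. With libraries of 1 class alone it was 53 and 652 (lower) and 17 and 604 (higher). Each of the 9 genes had at least 341 counts in every library.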
